A study of Homo sapiens with 2 samples.

Results

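The genes described here encode inflammatory cytokines and chemokines. They were chosen by symbol from a table of RNA regions crosslinked to RBM47, and are IL8, CXCL1, CXCL2, CXCL3, IL6, IL11, LIF, IL1A, IL1B and CSF2. Of these 10 genes, 9 had at least 1 region in the table, among 7712 genes in all, and they held 63 of its 233546 regions. CSF2 had no region listed.

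RBM47 is an RNA-binding protein with RNA recognition motifs. HITS-CLIP (crosslinking and immunoprecipitation followed by sequencing) was used to map where it touches RNA in MDA231-BrM2a, a non-clonal breast cancer line that was derived from MDA-MB-231 and forms brain metastases. Both samples, replicates 1 and 2 of a single group, expressed Flag-tagged wild-type RBM47 from a promoter that doxycycline switches on, and were irradiated with ultraviolet light after 3 days in doxycycline at 1 ng/ml. Without a control library among the samples used here, background binding in the pull-down has no measure, and the protein mapped was a tagged one made from a transgene. A tag is a unique sequenced fragment, and a cluster is a region of overlapping tags.

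Chemokines and inflammatory interleukins are secreted proteins that draw in and activate immune cells. Their mRNAs are short-lived as a rule. Many carry AU-rich elements in the 3′UTR, repeats of ATTTA in the DNA alphabet, to which decay factors and stabilising factors bind. MDA-MB-231 cells are known for secreting IL8 and IL6 without stimulation.

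AU-rich windows of 30 bases are shown for 6 of the genes, because they are the feature that these mRNAs are best known for sharing. IL8, CXCL1 and IL1A had the most tags, CXCL2 and CXCL3 are the close relatives of CXCL1, and CSF2 had no cluster. Capitals mark ATTTA and the sequence runs 5′ to 3′ along the mRNA.
IL8: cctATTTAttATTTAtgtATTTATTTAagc
CXCL1: aagtcttctATTTATTTATTTAttcattag
CXCL2: cttctATTTATTTATTTATTTATTTAtttg
CXCL3: gttctacttATTTAtgtATTTAtttttgaa
IL1A: tATTTAtatatgtATTTAtaaatatATTTA
CSF2: aaaatATTTATTTATTTATTTATTTAagtt

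All of them lie in the 3′UTR of the canonical transcript of the GENCODE annotation on GRCh37. The IL8 window is at chr4:74608828-74608857 on the plus strand and the CXCL1 window at chr4:74736390-74736419 on the plus strand. The CXCL2 window is at chr4:74963303-74963332 and the CXCL3 window at chr4:74902799-74902828, both on the minus strand. The IL1A window is at chr2:113532001-113532030 on the minus strand and the CSF2 window at chr5:131411769-131411798 on the plus strand. Each window is the stretch of that 3′UTR with the most ATTTA, which was 5 in CXCL2 and in CSF2, 4 in IL8, 3 in CXCL1 and IL1A, and 2 in CXCL3. The clusters below are on an older build, hg18, so the windows were not laid over them.

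The motif ATTTA, read on the mRNA strand with overlapping matches counted, was in the 3′UTR of all 10 genes. It was in 68.1% of 19238 canonical 3′UTRs of all genes, whose median length was 1086 nt. The longer TATTTAT, which contains ATTTA, was also in all 10 and in 31.76% of all 3′UTRs. CSF2 had the most ATTTA per kb of 3′UTR, 25.16, and LIF the fewest, 2.189, beside 2.254 per kb over all 3′UTRs. IL8 had 7.188 per kb and IL1A 4.378 per kb. The gene with the most tags was thus not the one with the densest ATTTA. Overlapping matches of TTTTT, a U stretch in the mRNA, were counted too, so 1 longer run gives several matches. IL8 had 17 matches in its 3′UTR of 1252 nt, or 13.58 per kb, while CXCL2 had 0. The longest run of T was 8 bases in IL8 and 9 in CXCL3. CXCL3 had 13.37 per kb, CXCL1 2.591 per kb and IL1A 3.503 per kb, beside 7.298 per kb over all 3′UTRs. A match of letters is a description of the sequence and does not mark a bound site.

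The table held 999047 tags of replicate 1 and 3489697 tags of replicate 2, so replicate 1 gave 22.26% of them. It lists only clusters with at least 1 tag in each replicate and 5 in total, so these sums are not library depths and a gene without a cluster may still be expressed. The mesenchymal-type markers looked for all had clusters, with 3345 tags on VIM, 8676 on CD44 and 3265 on AXL. Of the hormone receptor and epithelial markers, ESR1, PGR and CDH1 had no cluster listed and EPCAM had 1 cluster of 11 tags.

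RBM47 tags on the cytokine and chemokine mRNAs were spread very unevenly. The 9 genes held 4673 tags in replicate 1 and 16242 in replicate 2, or 0.4659% of all tags, and IL8 alone held 82.17% of them. IL1A and CXCL1 followed, and IL6, IL11 and LIF had 32 tags or fewer. Crosslinked tags rise with the amount of an mRNA and with the binding per mRNA, and these cannot be told apart here because no RNA level was measured in these libraries.

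**Figure D1:**
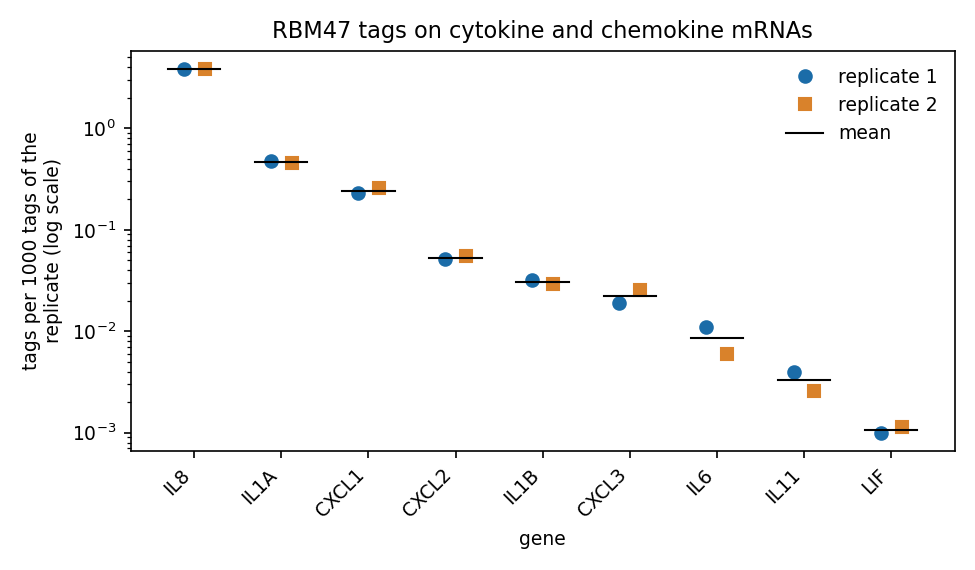
Tags on each gene per 1000 tags of the same replicate in the table, on a log axis, with replicate 1 as circles, replicate 2 as squares and the mean as a line. IL8 stands at 3.855 and 3.821, above IL1A at 0.4735 and 0.4576, and LIF is lowest at 0.001001 and 0.001146.

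The study's own measure of strong binding was more than 100 tags per transcript in clusters of at least 10 tags. It was recounted here by Entrez gene ID, and the recount does not match the study's own list. More genes passed in the recount than the study reports. The study prints more tags for IL8 than for the gene DKK1. In the recount DKK1 held 20391 tags and IL8 17178. Why the counts differ was not tested. By the recount 5 of the 10 genes passed, namely IL8, IL1A, CXCL1, CXCL2 and IL1B, beside 39.9% of all genes in the table. This is 55.56% of those with a cluster, and with so few genes nothing particular to the members was read from it. CXCL3 was just below, with 89 tags. Counted on the tags of replicate 2 alone 4 genes passed, without IL1B, and on those of the smaller replicate 1 alone 3 did, namely IL8, IL1A and CXCL1. The median member held 135 tags over all its clusters, against 97 for all genes. Per kb of clusters the medians were 181.2 tags for the members and 117.9 tags for all genes, and 6 of the 9 members lay above the latter.

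**Figure D2:**
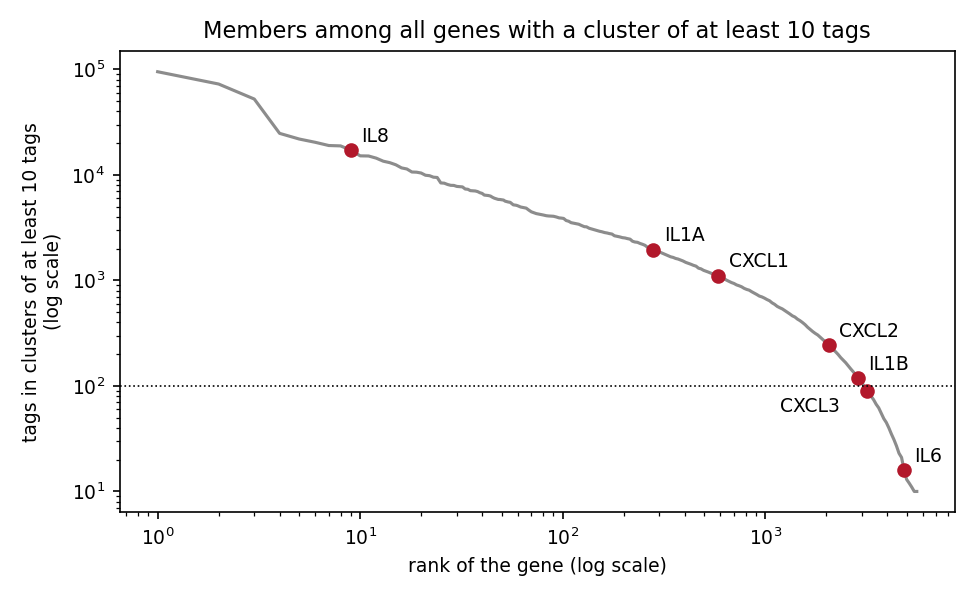
All genes with a cluster of at least 10 tags, ordered by their tags in such clusters, with both axes on a log scale and the members as red points; the dotted line marks 100 tags. IL8 was at place 9, IL1A at 280, CXCL1 at 587, CXCL2 at 2064, IL1B at 2864, CXCL3 at 3196 and IL6 at 4833.

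To compare levels between genes, tags were set per kb of the gene's clusters and per 1000000 tags of the replicate. IL8 came first with 1854 in replicate 1 and 1838 in replicate 2, a mean of 1846 ± 11.47 (SD, n = 2). CXCL1 followed with 224.3 ± 16.07, IL1A with 122.9 ± 2.953 and CXCL2 with 85.13 ± 4.506. The replicates of these 4 genes did not overlap, so their order was the same in both. IL1B, with 42.99 and 39.62, overlapped CXCL3, with 30.87 and 41.4. IL6 had 23.72 ± 9.834, IL11 19.83 ± 6.069 and LIF 14.91 ± 1.427, and neighbours among these overlapped as well. The median of all genes was 27.3 on this scale, so IL6, IL11 and LIF had means below it. By replicate the median was 29.22 and 25.51, and IL11 and LIF lay below it in both. The replicates of IL6 disagreed, with 30.67 above the median in replicate 1 and 16.76 below it in replicate 2. When the length of the canonical mRNA was used instead, IL8 stayed first at 2337 ± 14.52, but IL1A, with 230.8 ± 5.545, came ahead of CXCL1, with 207.5 ± 14.86. Without the intron clusters of IL1A, its value was 209.6 ± 9.64 and it could not be ordered against CXCL1.

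IL8, now named CXCL8, is the chemokine that attracts neutrophils through CXCR1 and CXCR2. It had 3851 tags in replicate 1 and 13334 in replicate 2, or 3.838 ± 0.02384 per 1000 tags (SD, n = 2), with counting intervals of 3730 to 3975 tags in replicate 1. Places by density used the authors' total per kb in clusters of at least 10 tags, unlike the densities above, which used all clusters. By that measure IL8 was at place 3 among the genes with more than 100 tags. The genes next to it were MACROD2 and MALAT1 above, and LINC00486 and DKK1 below. MACROD2 and LINC00486 reached their places on short clusters, with 396 and 362 tags, against 17178 for IL8. The density of DKK1, a secreted Wnt inhibitor that the study singled out together with IL8, was close by: the ratio of IL8 to DKK1 was 1.119 in replicate 1 and 1.062 in replicate 2. IL8 was 8.708 and 7.8 times as dense as CXCL1, and 14.83 and 15.21 times as dense as IL1A.

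The IL8 tags formed 5 clusters on the plus strand, at chr4:74825132-74828623 (hg18). From 5′ to 3′, the cluster over the 5′UTR and coding sequence held 194 tags, the coding clusters 644 and 80, a cluster labelled intron 5, and the last cluster 16260. That last cluster covered coding sequence and 3′UTR, was 1608 nt long at chr4:74827015-74828623, and held 3643 tags of replicate 1 and 12619 of replicate 2. It had 94.63% of the IL8 tags (Wilson 95% interval 94.28 to 94.96). Among 2740 clusters with that pair of labels it was at place 3 by tags, and their median was 17 tags and 122 nt. Over all genes and regions, 35 clusters were at least as long and 5 had at least as many tags, itself included. Binding along IL8 was thus recorded as 1 long region, with 10.11 tags per nt there and 4.155 tags per nt in the denser coding cluster.

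**Figure D3:**
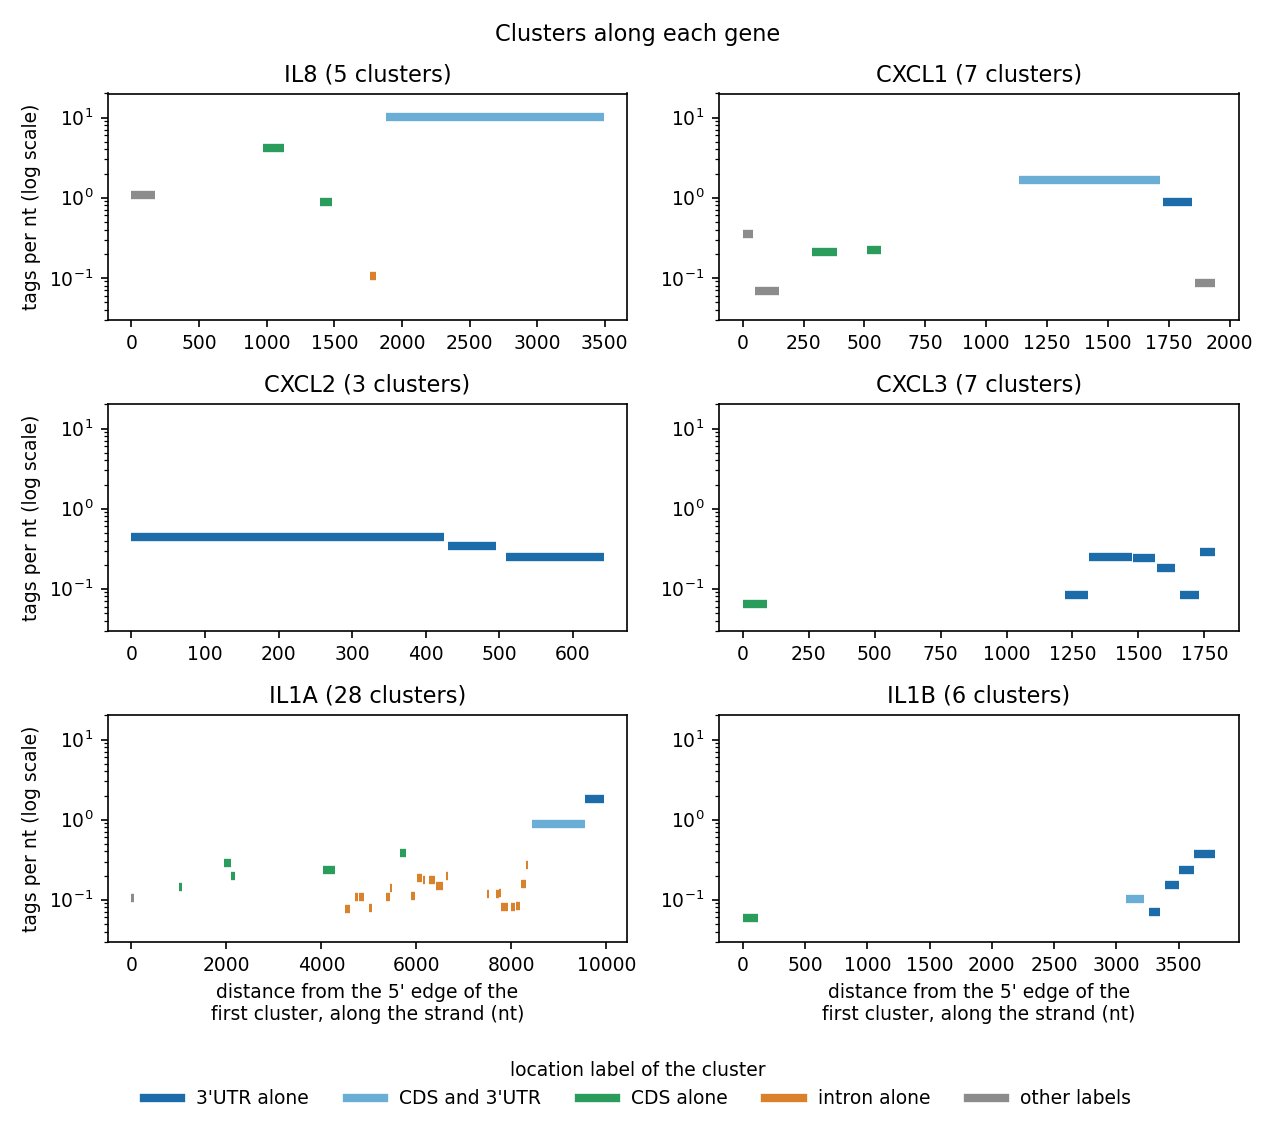
Clusters of 6 genes along the direction of transcription, as distance in nt from the 5′ edge of the first cluster; the height is tags per nt on a log axis and the colour the authors' location label. In IL8, CXCL1, CXCL2 and IL1A the clusters with the most tags lie toward the 3′ end or within the 3′UTR, and IL1A has 20 thin intron clusters of 5 to 23 tags.

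CXCL1, CXCL2 and CXCL3 are neighbouring chemokine genes that arose by duplication and signal through CXCR2. CXCL1 had 231 tags in replicate 1 and 893 in replicate 2, or 0.2436 ± 0.01745 per 1000 (SD, n = 2). Its 7 clusters ran from chr4:74953971 to 74955911 on the plus strand (hg18). A cluster of 578 nt over coding sequence and 3′UTR, at chr4:74955106-74955684, held 954 tags, which was 84.88% of the gene's (82.66 to 86.85), and the 3′UTR cluster after it held 107. The other 5 clusters held 7 to 22 tags each. In density CXCL1 was at place 46 of the genes with more than 100 tags, between DCTN6 and TMED5 above it and APP and CTSC below it.

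CXCL2 had 51 tags in replicate 1 and 192 in replicate 2, or 0.05303 ± 0.002808 per 1000 (SD, n = 2). All 3 of its clusters were labelled 3′UTR, with 188, 22 and 33 tags from 5′ to 3′, the first at chr4:75181836-75182261 on the minus strand (hg18). Per kb of clusters, CXCL1 was 2.633 ± 0.04934 times as dense as CXCL2 (SD, n = 2).

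CXCL3 had 19 tags in replicate 1 and 89 in replicate 2, or 0.02226 ± 0.004586 per 1000 (SD, n = 2). Its 7 clusters were short and none passed 41 tags. The 6 in the 3′UTR held 6 to 41 tags and the coding cluster 6. The density of CXCL2 over CXCL3 was 2.654 in replicate 1 and 2.133 in replicate 2. In tags per kb of clusters the order IL8, CXCL1, CXCL2, CXCL3 was thus the same in both replicates.

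These neighbours share sequence, which limits how surely a tag can be given to one of them. In the GRCh37 transcripts CXCL1 and CXCL2 had 173 stretches of 30 bases in common, CXCL2 and CXCL3 104, and CXCL1 and CXCL3 33. Of all 30-base stretches of the mRNA, 15.72% in CXCL1, 22.47% in CXCL2 and 9.943% in CXCL3 were also found in another gene. In CXCL3 they lay in the coding sequence and 0 were in the 3′UTR, whereas in CXCL1 and CXCL2 113 each were in the 3′UTR. IL8 shared 0 such stretches with any transcript of another gene. How the mapping treated reads with several matches is not given in the sources used here.

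IL1A and IL1B are the interleukin 1 ligands. Both are made as precursors without a secretion signal and bind the same receptor. IL1A had 473 tags in replicate 1 and 1597 in replicate 2, or 0.4655 ± 0.01119 per 1000 (SD, n = 2). IL1B, the neighbouring gene, had 32 tags in replicate 1 and 103 in replicate 2, or 0.03077 ± 0.001778 per 1000. Per kb of clusters IL1A was 2.978 ± 0.1006 times as dense as IL1B (SD, n = 2). The clusters summed to 187.8% of the canonical mRNA length in IL1A and to 49.44% in IL1B. Per kb of that mRNA, scaled to the tags of the replicate as above, IL1A had 230.8 ± 5.545 and IL1B 20.42 ± 1.18. Without its intron clusters IL1A had 209.6 ± 9.64. By each length the pair differed by more than the spread between the replicates, but the size of the difference depended on the length used.

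The IL1A tags were spread over 28 clusters, the most of any member, against a median of 9 clusters per gene over the table and 5 among the members. They ran from chr2:113247882 to 113257823 on the minus strand (hg18). The largest, of 971 tags, covered coding sequence and 3′UTR at chr2:113248274-113249384, and the next, of 717 tags, lay in the 3′UTR at chr2:113247882-113248276. The 3′UTR cluster was the denser of the pair, with 1.827 tags per nt against 0.8757. Neither held over 46.96% of the gene's tags.

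IL1A was the only member with more than 1 cluster labelled intron alone. It had 20, with 37 tags in replicate 1 and 170 in replicate 2, which was 10% of its tags (8.781 to 11.37). They were 129.1 tags per kb dense, against 853 tags per kb in its 8 clusters with an exon label. In the intron 13 of the 20 clusters rested on 1 tag of replicate 1. Replicate 1 gave 17.87% of the intron tags (13.26 to 23.66) and 23.4% of the exon tags (21.54 to 25.38), and these intervals overlap.

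IL1B had 6 clusters on the minus strand at chr2:113303810-113307601 (hg18). From 5′ to 3′, they held 7 tags in the coding sequence, 14 across coding sequence and 3′UTR, and 6, 16, 27 and 62 in the 3′UTR. The most distal one had 45.93% of the tags, and density in the last 4 went up toward the 3′ end, from 0.07059 to 0.3758 tags per nt.

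IL6, IL11 and LIF signal through receptor complexes that contain gp130, the product of IL6ST. IL6 had 11 tags in replicate 1 and 21 in replicate 2, in 4 clusters, the largest with 16 tags in the 3′UTR at chr7:22737994-22738132 (hg18, plus strand). Its values per 1000 tags were 0.01101 and 0.006018, the widest relative spread of the 9 genes. IL11 had 4 and 9 tags in clusters of 6 and 7, both in the 3′UTR. Of the 30-base stretches of the IL11 mRNA, 7.28% were also found in transcripts of other genes, 2932 in all, and these stretches were all in its 3′UTR. LIF had 1 cluster of 5 tags in the 3′UTR, the lowest total in the table.

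CSF2 encodes the granulocyte and macrophage growth factor GM-CSF. It had no cluster listed, and no level is given for it. Its 3′UTR of 318 nt has 8 ATTTA, the most per kb among the members.

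Where the tags lay differed from gene to gene. In 6 of the 9 genes, CXCL2, CXCL3, IL6, IL11, LIF and IL1B, 84.38% or more of the tags were in clusters labelled 3′UTR alone. The shares were 100% in CXCL2 (98.44 to 100), 94.44% in CXCL3 (88.41 to 97.43), 84.38% in IL6 (68.25 to 93.14) and 84.44% in IL1B (77.39 to 89.59). IL11 and LIF were also at 100%, on 13 and 5 tags. IL8, CXCL1 and IL1A instead had most of their tags in clusters that crossed from coding sequence into the 3′UTR or, in IL1A, in such a cluster and a 3′UTR cluster.

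Counting every label that includes 3′UTR, all 9 genes had most of their tags there. The share of all genes that meet this count, or that of the 6 genes above, was not taken. Neither is therefore read as particular to the members. Over all genes in the table, 3′UTR alone held 41.29% of the tags, coding sequence with 3′UTR 9.48%, coding sequence alone 10.51% and intron alone 27.58%. The members without IL8 had 35.68%, 52.01%, 5.871% and 5.55% in these classes. By the replicate columns, the 52.01% came from 1 cluster each in IL1A, with 972 tags, CXCL1, with 954, and IL1B, with 14. CXCL2, CXCL3, IL6, IL11 and LIF had no cluster of coding sequence with 3′UTR, so the pooled share does not describe them. Among the members, IL8 and IL1A were the only ones with a cluster labelled intron alone, and IL8 had a single one of 5 tags. CXCL1 had 1 cluster of 7 tags labelled both 3′UTR and intron. The label of a long cluster names every feature that it crosses and does not say where in it the tags lay.

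**Figure D4:**
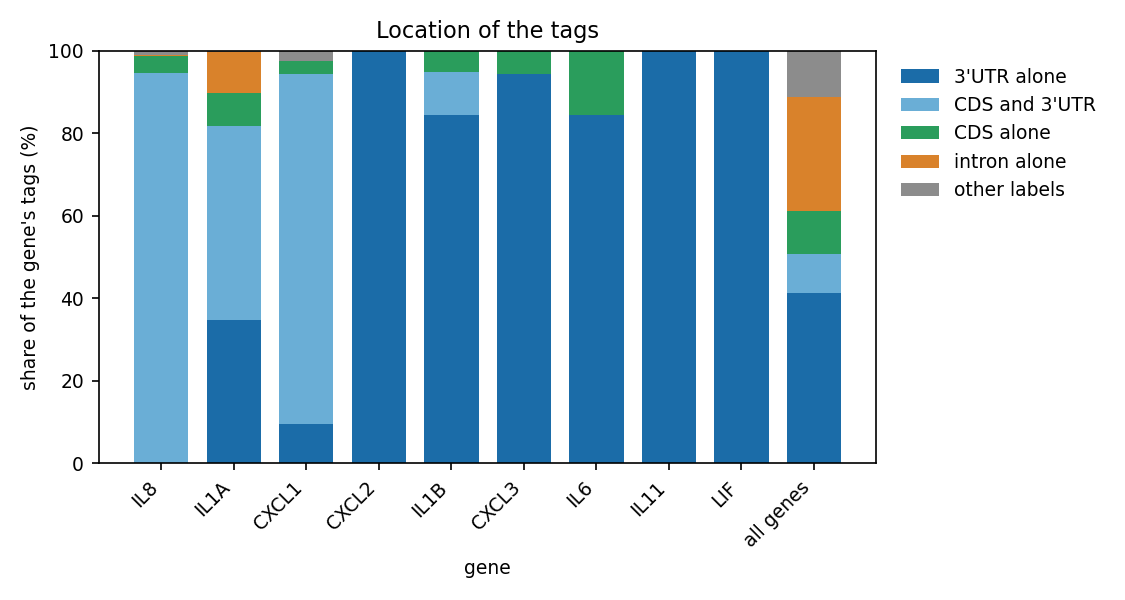
Share of each gene's tags, in percent and summed over both replicates, by the authors' location label, for the 9 genes and for all genes in the table. The 6 genes with dark blue bars of 84.38% or more had their tags in clusters of the 3′UTR alone, IL8 and CXCL1 had 94.63% and 84.88% in the class of coding sequence and 3′UTR, and intron clusters held 10% in IL1A and 27.58% over all genes.

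Whether the replicates divided the tags alike was tested for every cluster and gene, with replicate 1 expected to give 22.26%. None of the 63 member clusters passed a two-sided exact binomial test at an adjusted p of 0.05, beside 0.0111% of all clusters. The 29 member clusters of under 10 tags held too few for any listed split to pass after adjustment over 233546 clusters. At an unadjusted p under 0.05 there were 2 of the 63, beside 3.042% of all clusters, both in IL1A with 5 tags in replicate 1 and 3 in replicate 2. None of the 9 genes passed either, beside 1.7% of all genes. At an unadjusted p under 0.05 there were 0 of the 9, beside 10.08% of all genes. A beta-binomial test, which allows for extra spread, called 0 of the member clusters and 0 of the member genes, beside 10 clusters and 6 genes in the whole table. When the expected share was taken from clusters of at least 100 tags, 20.8%, the last IL8 cluster, with 22.4% (21.77 to 23.05), passed at an adjusted p of 0.009033 by the exact binomial test, as 1 of 18 clusters called in all. It also passed where clusters of at least 30 tags alone were tested, as 1 of 32, and IL8 passed as a gene where clusters of at least 10 tags were summed, as 1 of 23 genes. Replicate 1 shares ranged from 17.59% in CXCL3 to 34.38% in IL6 (20.41 to 51.69), and the Wilson intervals of all 9 genes contained 22.26%. That of IL8 was the narrowest, 21.79 to 23.04. The 22.26% is the share in a list that requires at least 1 tag in each replicate. The intervals of IL8 and IL1A (21.09 to 24.71) lay above the 20.8% of clusters of at least 100 tags, and those of the other members contained it. These tests compare the libraries, not conditions, and nothing in the labels says that the replicates came from separate cultures.

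In 11 of the 63 clusters the authors' total was lower than the sum of both replicates, by at most 3 tags, beside 13.2% of all clusters. The values per replicate above use the replicate columns.

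Tags also lay just outside the regions that carry a member's symbol. Within 10 kb of the members there were 26 clusters without any gene symbol, of which 25 were on the member's strand. IL1A had 17 of them, with 119 tags in replicate 1 and 503 in replicate 2, at chr2:113243836-113247850 (hg18). They began 32 nt beyond its last 3′UTR cluster and reached 4046 nt further, with 228.8 tags per kb and 30.05 tags for every 100 inside IL1A clusters. The authors labelled all of them as both downstream and upstream of a gene. IL8 had 6 such clusters with 38 and 170 tags, reaching 3032 nt downstream, which came to 1.21 for every 100 of its own. CXCL1 had 2, with 4 and 15 tags. No such cluster lay on the strand of CXCL2, CXCL3, IL6, IL11, LIF or IL1B.

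The other genes of these pathways were followed from lists of ligands, receptors and signalling proteins. None of the 29 other ligands passed 100 tags in clusters of at least 10, and 7 of them had a cluster at all. The most tags by that measure were 88 on IL24, then 29 on IL18 and 29 on IL12A, while IL7 and IL15 had no cluster of 10 tags. Most of the tags of IL18 were in introns, 50.65%, whereas IL24 had 78.45% in clusters with a 3′UTR label.

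Of 13 receptor genes 5 had a cluster and 4 passed 100 tags. IL6ST, the gp130 subunit, had 11393 tags and stood at place 17 of all genes, with 91.96% of its tags in clusters with a 3′UTR label. LIFR, its partner for LIF, had 745, OSMR, the oncostatin M receptor, 537, and IL1RAP, the accessory chain of the IL1 receptor, 423. IL6R, which binds IL6 itself, had 29. In density IL6ST exceeded IL6 in both replicates, by 8.538 and 17.12 times, and CXCL1 had 0.813 and 0.821 times the density of IL6ST. IL6ST was the only gene of these lists whose replicate split passed the exact binomial test (adjusted p = 0.00932), with 20.71% from replicate 1. The share expected in that test was 22.26%. In clusters of at least 100 tags the replicate 1 share was 20.8%, close to that of IL6ST. The split of IL6ST as a gene was not tested against 20.8%, so the call depends on the expected share used. CXCR1, CXCR2, IL1R1, IL1R2, IL1RL1, IL11RA, CSF2RA and CSF2RB had no cluster listed.

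Of 24 genes of IL1 and NF-κB signalling 17 had a cluster and 4 passed. TAB2 had 1495 tags and MAP3K7, the TAK1 kinase that TAB2 binds, 515. NFKBIZ, a nuclear IκB protein needed for some cytokine genes, had 151, and TNFAIP3, the deubiquitinase A20 that restrains NF-κB, 110, with 100% of its tags in clusters with a 3′UTR label. TAB3 had 85. In MAP3K7 63.65% of the tags were in introns.

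Of 13 JAK-STAT genes 9 had a cluster and 4 passed. Among them were PTPN11, the phosphatase SHP2, with 1483 tags, the kinase JAK1 with 402, and the transcription factor STAT3 with 170. PIAS1 had 25. SOCS3, the feedback inhibitor of gp130, had 1 cluster of 6 tags. In all 12 genes of the lists passed, with 11 from replicate 2 alone and 3 from replicate 1 alone. As a share of the genes with a cluster, 0% of the other ligands and 80% of the receptors passed. For IL1 and NF-κB signalling it was 23.53% and for JAK-STAT 44.44%, beside 39.9% of genes in the table. The medians were taken over all clusters by the authors' total, not over clusters of at least 10 tags. Among the genes with a cluster the median was 11 tags for ligands, 692 for receptors, 46 for IL1 and NF-κB signalling and 107 for JAK-STAT. For all genes in the table it was 96.

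**Figure D5:**
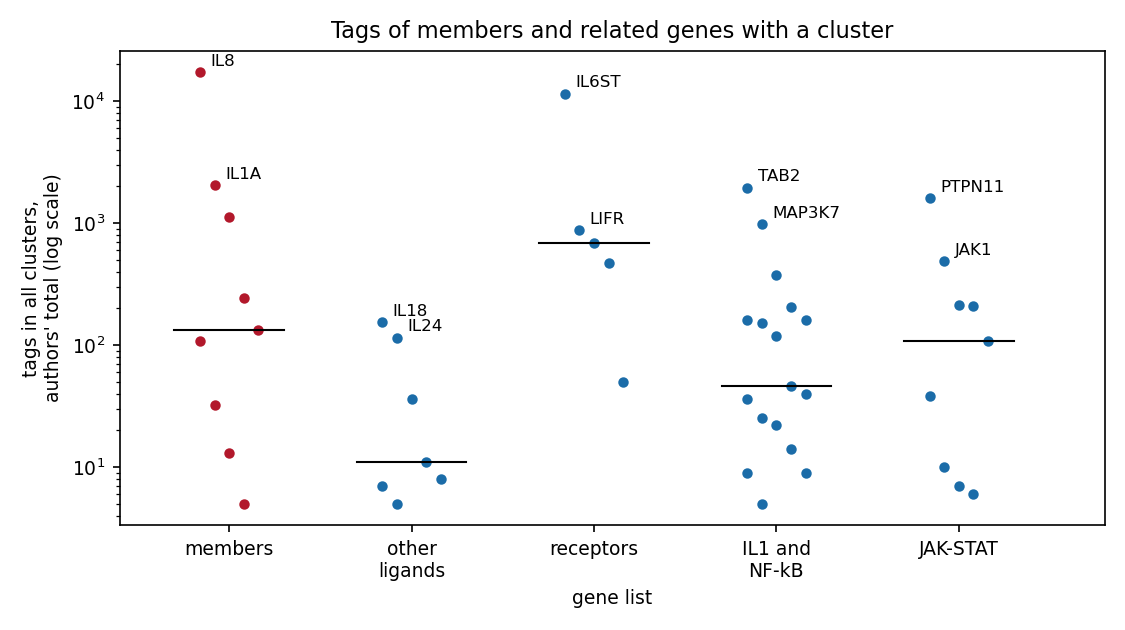
Tags in all clusters by the authors' total, on a log axis, for each gene with a cluster among the members and 4 related lists, with the median as a line and the highest genes named. IL8, with 17183 tags, and IL6ST, with 11519, stand far above the others, and no other ligand passes 153.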

How the data were processed

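A single group of 2 HITS-CLIP replicates was analysed. The authors deposited counts of tags for each cluster, with 1 column a replicate and 1 for their total. Per the study's methods, the authors tailed the fragments, reverse transcribed them with a primer carrying a degenerate barcode, collapsed duplicates to unique tags and grouped these into clusters with tags in both replicates. The submitters' processing notes name Novoalign, without a version, and the genome build hg18. Collapsing by barcode lowers the effect of amplification on the counts.

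Clusters of the members were taken by gene symbol. For counts and ranks over all genes, clusters were summed by Entrez gene ID, and those without one were left out. Cluster length was taken as end minus start, and whether coordinates count from 0 or 1 is not known. Each replicate's values were divided by its own tag sum and multiplied by 1000. Wilson (95%) and exact Poisson intervals cover counting error only. Splits between replicates were tested over all clusters and genes by a two-sided exact binomial test with Benjamini-Hochberg adjustment, tested on simulated data. Transcript lengths, motifs and shared 30-base stretches came from GENCODE release 44 lifted to GRCh37, and no coordinate was converted between builds. Python 3.11.15, numpy 2.4.6, scipy 1.17.1, pandas 2.3.3 and matplotlib 3.10.9 were used.

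The members and lists were chosen with earlier results of these data known. Named genes are the members, DKK1, and up to 5 genes per list that had the most tags where clusters under 10 tags were left out. Also named are the 2 genes above and below each member among the first 100 by density in clusters of at least 10 tags. SOCS3, the cell markers and the receptors without a cluster are named beyond that rule. The values of 1 listed gene are not reported here. Alternatives changed the minimum of tags per cluster, the tag column, the denominator, the length, the expected share, the test and the replicates used.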

Additional observations from a re-analysis of the deposited data

Results flagged for a closer look

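Clusters that carry no gene symbol lie outside the genes counted above, and tags were found in them near 4 members. On the strand of IL1A there were 622 tags in 17 such clusters, with 119 from replicate 1 and 503 from replicate 2. Replicate 1 gave 19.13% of these (Wilson 95% interval 16.23 to 22.41). On the strand of IL8 there were 208 tags in 6 clusters and on that of CXCL1 19 tags in 2 clusters. Near IL1B a single cluster of 5 tags lay on the other strand. No control library was at hand, and every listed cluster has at least 5 tags, so these are values without a test.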

How the results depend on the processing

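Of 242 alternative values, 160 moved by no more than the replicate SD or, for counts and ranks, by no more than 1.5 times. The other 82 moved further, and no check for a reversed direction was made. With 2 replicates, a level or share with 1 left out always lies within their SD of the mean. Such values could not count as moved. Taking clusters by Entrez gene ID picked the same ones, so those values could not move either. Both kinds are among the 160. The members' summed level, 4.666 per 1000 tags, was 4.621 with clusters of at least 10 tags, 4.553 with at least 30, 4.702 by the authors' total, 5.969 with the denominator of clusters of at least 10 tags, 4.844 without NEAT1 and MALAT1 in it, and 4.654 to 4.677 with 1 replicate left out. The single member among the first 100 genes, IL8, was joined by CXCL1 per kb of clusters of at least 10 tags, which made 2. With 1 replicate left out the count was 1. Members above 100 tags numbered 5, with 6 over all clusters and 3 to 4 with 1 replicate left out. Related genes above 100 tags numbered 12, with 19 over all clusters and 3 to 11 with 1 replicate left out, fewest without replicate 2, the larger library. The IL8 density of 1846 was 1099 over the span of its clusters, 2258 in the largest cluster, 2337 per kb of mRNA with or without intron clusters (lengths chosen after seeing the data), and 1838 to 1854 with 1 replicate left out. The split test between replicates called 0 of the member clusters, and 1, the largest of IL8, with the expected share from clusters of at least 100 tags (20.8%), from the median ratio (20.83%), or with clusters of at least 30 tags tested. It called 0 of the member genes, and 1, IL8, with clusters of at least 10 tags (adjusted p = 0.002269, exact binomial test). The 63 clusters became 35 when those closer than 50 nt were merged and 34 at 10 tags or more. IL11 and LIF had no cluster of 10 tags and IL6 none of 30, so those alternatives gave no value. No paired analysis was possible because both replicates belong to 1 group. The smaller replicate 1 limits precision, since 22 of the 63 clusters had 1 tag from it.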
